A study of Mus musculus with 45 samples.

Results

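Axon guidance genes were followed in the hippocampus of 45 female C57Bl/6J mice, across the 8 combinations of 4 genotypes and 2 diets. The members were all protein-coding genes of the deposited table whose symbols name a semaphorin, a plexin, an Eph receptor, an ephrin, a Slit, a Robo or a netrin, by symbol alone. There were 60 of them among the 15897 genes of the table: 20 semaphorins, 9 plexins, 13 Eph receptors, 7 ephrins, 3 Slit genes, 4 Robo genes and 4 netrins. Of the 62 genes with such symbols in the annotation, Efna4 and Epha1 have no row in the table.

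The AwTw mice were wild type littermates. The A+Tw mice carried 1 transgene construct, driven by the mouse prion protein promoter, with a chimeric mouse and human APP bearing the Swedish mutation and human presenilin 1 lacking exon 9 (the APPswe/PS1dE9 line, a model of β-amyloid deposition). The AwT+ mice expressed human tau with the P301L mutation under the CaMKII promoter, which is active in forebrain excitatory neurons, and the A+T+ mice came from crossing both lines. From 7 to 13 months of age the mice ate either a standard diet (STD, 5% fat by weight and 0% cholesterol) or a typical Western diet (TWD, 21% fat, 0.15% cholesterol and 35% sucrose). Each group held 6 mice, except A+Tw/STD with 5 and A+T+/STD with 4, all separate animals killed at 13 months.

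Guidance genes steer growing axons by attraction or repulsion, and in the adult hippocampus the same genes act at synapses, in glia and in blood vessels. Slit proteins are secreted and signal through Robo receptors. Class 3 semaphorins are secreted and need a neuropilin to activate A-type plexins, whereas most other semaphorins sit in the membrane and bind plexins directly. Ephrins are membrane-bound ligands of the Eph receptor tyrosine kinases, and both sides of an ephrin and Eph contact can signal. Netrins are laminin-like secreted proteins whose classical receptors are Dcc and the Unc5 family.

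The deposited values are variance-stabilized counts on a log2-like scale from which the authors had removed batch. A doubling moves them by close to 1 unit for well-expressed genes and by less than 1 unit for genes with few reads. The number of reads per mouse cannot be read from them, and precision therefore rests on the spread between mice. The median over all genes lay between 8.05 and 8.31 in each mouse. As a check of the labels, App was at 15.05 to 15.80 in the 21 A+ mice and at 14.29 to 14.86 in the 24 Aw mice, and Prnp, part of whose sequence the transgene carries, at 14.66 to 15.02 and 13.28 to 13.98. The mouse gene Mapt was at 12.59 to 13.40 in T+ and at 12.61 to 13.16 in Tw mice, and the human tau transgene was not measured. Batch 0 held 20 mice and batch 1 held 25, with 1 of the 5 A+Tw/STD mice in batch 0. Markers of dentate gyrus granule cells (8 measured, summed level 12.00 to 12.67), CA1 (7, 13.64 to 14.43) and CA3 and CA2 pyramidal cells (8, 11.95 to 12.77) were present in every mouse. Choroid plexus markers (14 measured) differed widely between mice, with summed levels from 10.00 to 18.12.

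The members had deposited values somewhat above the rest of the table, with a median mean level of 8.81 against 8.21 over all genes. These values are not divided by transcript length, and the members have longer transcripts. Among genes without a diet call (below), the median longest transcript was 4850 bases in members and 3359 over all genes. Levels are compared between members per length, as the mean deposited value minus log2 of the longest transcript in kb. On this scale Efnb3, a transmembrane ephrin, was the highest of the 60 (9.74), followed by Slit1 (9.13), Efna3 (9.13), Sema6b (9.07) and Sema7a (8.91). Among the Eph receptors Epha4, the receptor that binds ephrins of both classes, was highest (8.72) and Epha2 lowest (3.70). Of the plexins, Plxna1 came first (8.02) and Plxna3 last (5.49). The semaphorins spanned the widest range, from Sema6b down to Sema3a (3.49), and their 5 lowest members, Sema3a, Sema3d, Sema3g, Sema3f and Sema3c, belong to the secreted class 3. Efna5, the lowest ephrin, was at 4.59.

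Within the Slit and Robo families, Slit1 was followed by Slit3 (7.08) and Slit2 (5.64), and Robo2 (6.71) and Robo1 (6.26) stood above Robo3 (4.94) and Robo4 (4.51), the Robo of blood vessels. The ranges over mice of Robo2 and Robo1 overlapped, and so did those of Robo3 and Robo4. Among the netrins Ntn5 was highest per length (6.77), and Ntn1, the classical chemoattractant, was lowest (5.00), with Ntn3 (5.13) and Ntn4 (5.11) within the spread of Ntn1. After group and batch were fitted, the spread between mice (residual SD) had a median of 0.30 over the members and 0.26 over all genes. It ran from 0.14 for Efnb3 to 0.96 for Sema3b.

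**Figure D1:**
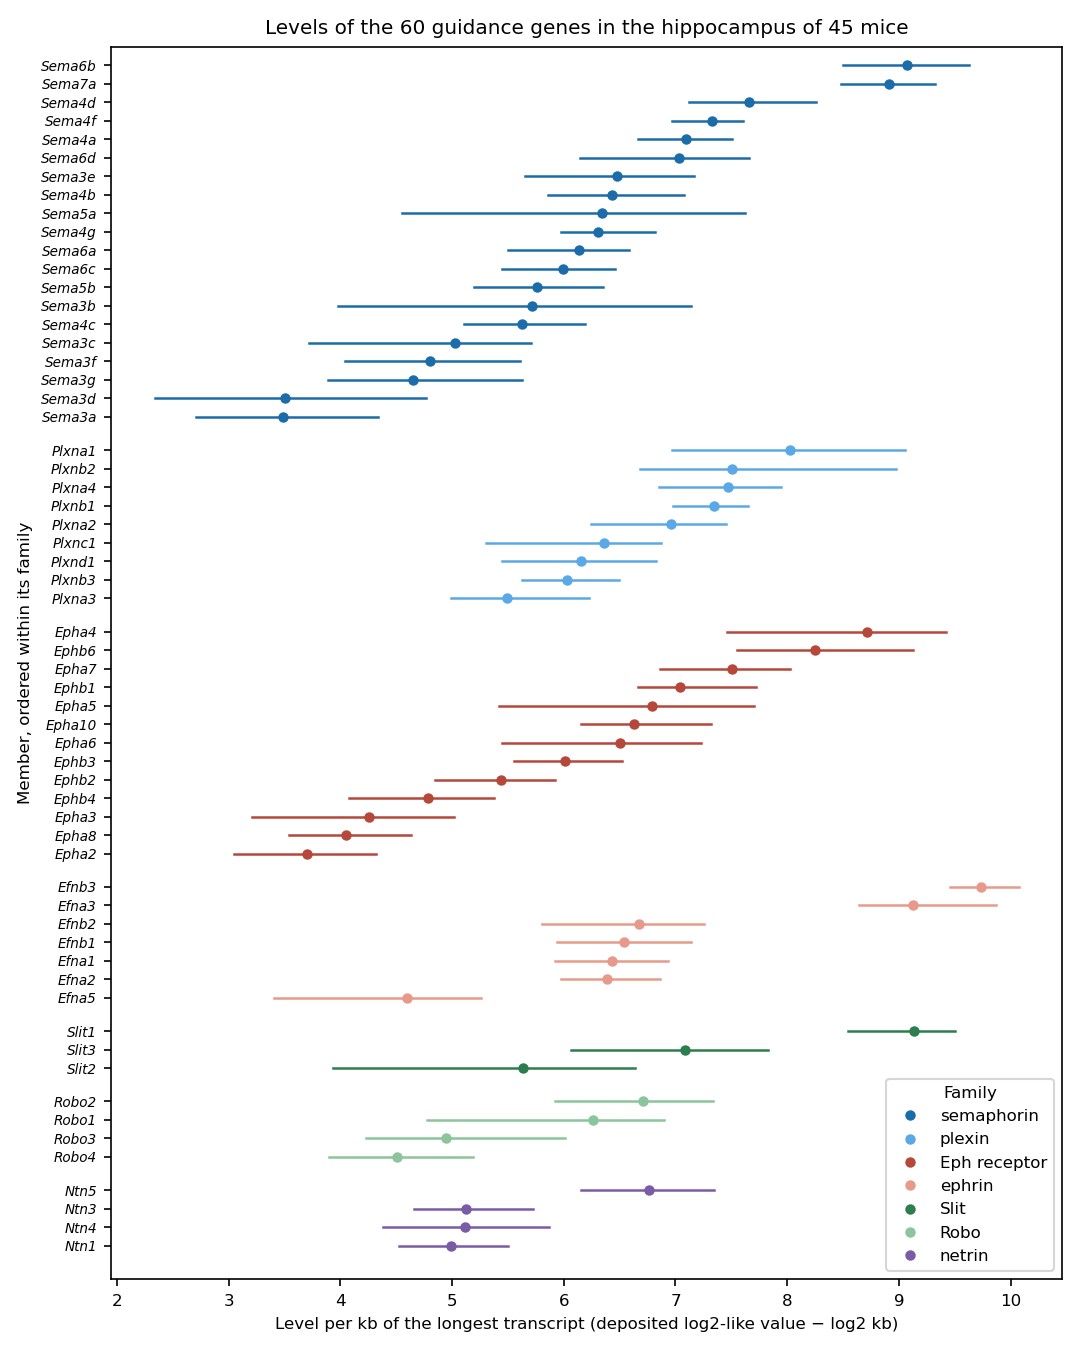
Each point is the mean over 45 mice of 1 member, on the horizontal axis as the deposited log2-like value minus log2 of the transcript length in kb, and each line runs from the lowest to the highest mouse. Efnb3, Slit1, Efna3, Sema6b and Sema7a lie at the right end, at 8.91 to 9.74, and the secreted class 3 semaphorins fill most of the left end of their family.

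The first question was whether TWD moved these genes irrespective of genotype, which the study also asked of the transcriptome. In a limma fit with terms for genotype, diet and batch, 24 of the 60 members (40%) passed an adjusted p of 0.05, with 18 lower and 6 higher on TWD. Of all genes tested, 29.4% passed, 13.4% lower and 16.0% higher, and the median difference was -0.04 over the members and close to 0 over all genes. The 18 members that fell were 6 semaphorins, 4 Eph receptors, 3 plexins, 2 ephrins, Slit2, Robo1 and Ntn4, and the 6 that rose were Ephb6, Efna1, Epha10, Sema4d, Ntn5 and Ephb1. In bulk tissue, fewer cells of a type and less RNA per cell cannot be told apart.

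**Figure D2:**
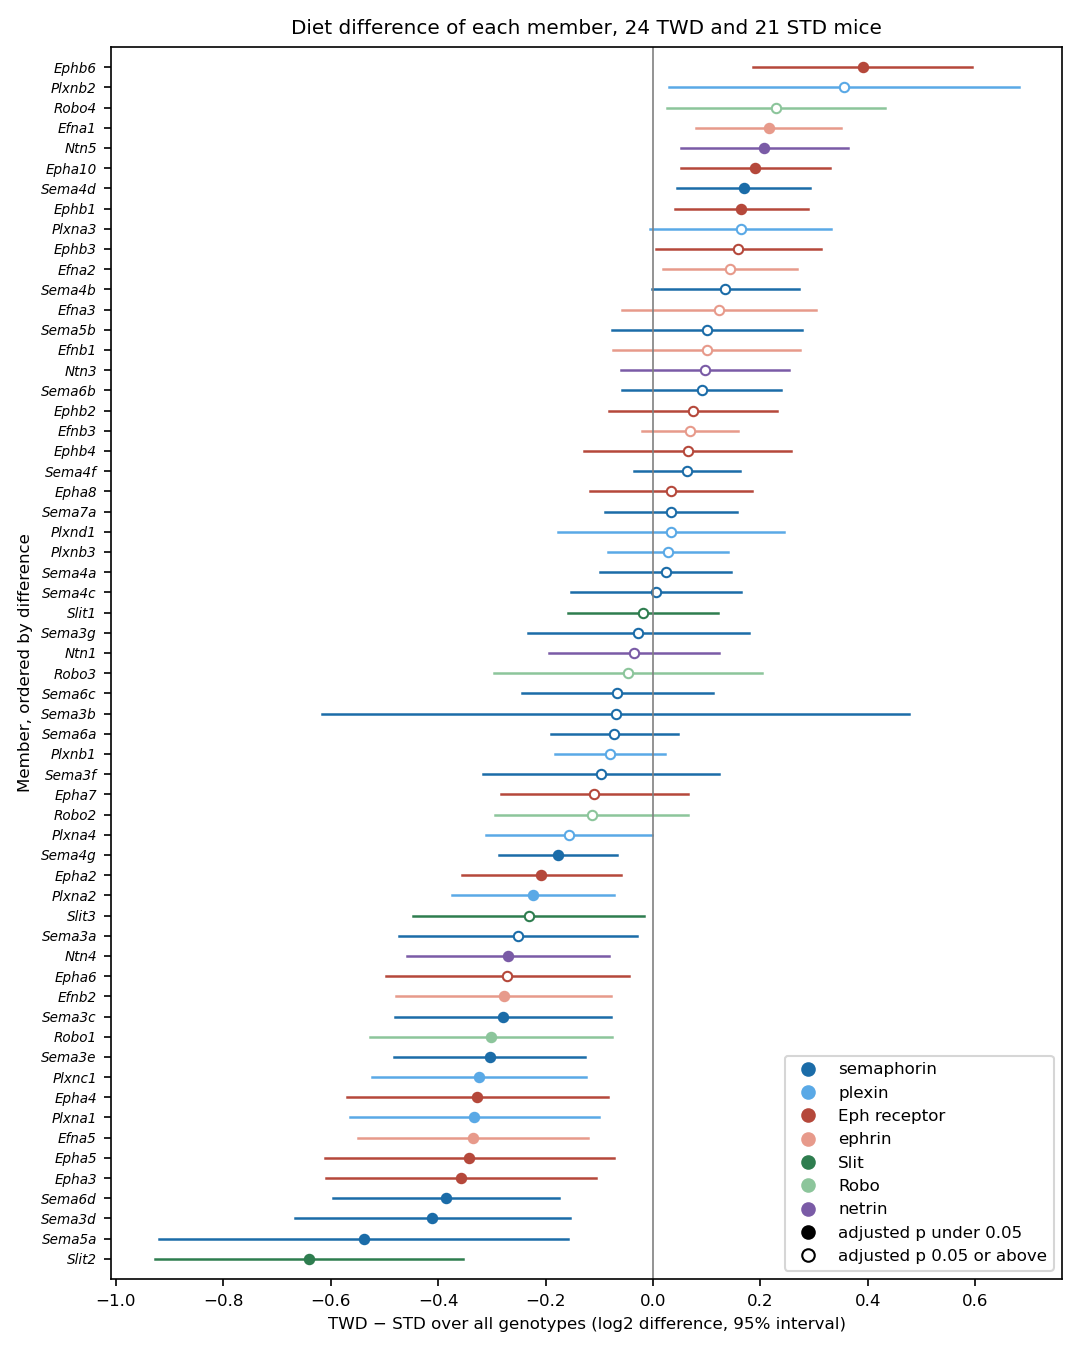
Each point is the log2 difference TWD minus STD of 1 member over all genotypes with its 95% interval, coloured by family, and filled points passed an adjusted p of 0.05 over all genes. The 18 filled points on the left run from Slit2 at -0.64 to Sema4g at -0.18, and the 6 on the right from Ephb1 at 0.16 to Ephb6 at 0.39.

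Slit2, a secreted repellent for Robo-expressing axons, had the largest difference and the smallest p of the 60. In AwTw mice its level had a lowest, median and highest value of 9.06, 9.53 and 9.87 on STD and 7.85, 8.74 and 9.38 on TWD. The corresponding values of AwT+ mice were 9.25, 9.34 and 9.67 on STD and 7.87, 8.91 and 9.52 on TWD. The ranges overlapped, but in both genotypes 5 of 6 TWD mice lay below the lowest STD mouse. The 5 A+Tw/STD mice were at 8.54, 8.91, 9.14, 9.68 and 9.95, and the A+Tw/TWD mice ran from 8.03 through a median of 8.61 to 9.23. In the 4 A+T+/STD mice the values were 8.54, 8.69, 9.15 and 9.31, against 7.25, 8.84 and 9.12 as the lowest, median and highest of A+T+/TWD. These last 2 groups overlapped almost fully, and the A+T+/TWD mouse at 7.25 lay far below the next, at 8.70. Over all genotypes Slit2 fell by 0.64 on TWD (SE 0.14, adjusted p = 0.0157), a level 0.64 times that on STD.

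The other Slit and Robo genes had smaller differences. Slit1, the Slit with the highest level, differed by -0.02 (95% interval -0.16 to 0.12), and Slit3 by -0.23 (SE 0.11, adjusted p = 0.090). Robo1, a Slit receptor, fell by 0.30 (SE 0.11, adjusted p = 0.0398), with a median of 9.40 on STD and 9.21 on TWD. Robo2, the other main neuronal Slit receptor, differed by -0.11 (SE 0.09, adjusted p = 0.32), Robo3 by -0.05 (adjusted p = 0.79) and Robo4 by 0.23 (adjusted p = 0.076).

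Of the semaphorins, 6 of 20 fell, 1 rose and 13 did not pass. Sema6d, a transmembrane ligand of Plxna1, ran from 9.13 to 10.21 with a median of 10.02 in the 21 STD mice, and from 8.84 to 10.34 with a median of 9.62 in the 24 TWD mice. It fell by 0.39 (SE 0.10, adjusted p = 0.0157). Sema3e, which binds Plxnd1 without a neuropilin, ran from 9.08 through 9.43 to 9.95 on STD and from 8.44 through 9.10 to 9.59 on TWD, and fell by 0.30 (SE 0.09, adjusted p = 0.0172). The diets overlapped for both genes, and in each the lowest mouse was a TWD mouse.

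Sema4g had a narrow spread, with a median level of 8.60 on STD and 8.40 on TWD and the same lowest value of 8.16 on both, and fell by 0.18 (SE 0.05, adjusted p = 0.0196). Sema3d, a secreted class 3 semaphorin near the bottom of its family, was at 5.64, 6.44 and 7.42 on STD and at 5.00, 6.04 and 6.73 on TWD, and fell by 0.41 (SE 0.13, adjusted p = 0.0201). Sema3c fell by 0.28 (SE 0.10, adjusted p = 0.0340). Sema5a, a transmembrane semaphorin with thrombospondin repeats, fell by 0.54 (SE 0.19, adjusted p = 0.0315) and had the largest residual SD of the family after Sema3b (0.66). The semaphorin that rose was Sema4d, the ligand of Plxnb1, by 0.17 (SE 0.06, adjusted p = 0.0365), with medians of 9.70 on STD and 9.88 on TWD.

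Of the plexins, the receptors of the semaphorins, 3 of 9 fell and 6 did not pass. Plxnc1, the receptor of Sema7a, had a lowest, median and highest level of 8.61, 9.48 and 9.74 on STD and 8.18, 9.11 and 9.71 on TWD, and fell by 0.32 (SE 0.10, adjusted p = 0.0195). Sema7a itself differed by 0.03 (95% interval -0.09 to 0.16). Plxna2 fell by 0.22 (SE 0.07, adjusted p = 0.0267) and Plxna1 by 0.33 (SE 0.11, adjusted p = 0.0299), while Plxna4 differed by -0.16 (adjusted p = 0.11) and Plxnb2 by 0.36 with a wide interval (0.03 to 0.68, adjusted p = 0.085).

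Ephrins and Eph receptors moved in both directions. Ephb6, an Eph receptor whose kinase domain is inactive, rose most. Its lowest, median and highest level was 9.47, 9.88 and 10.76 in the STD mice and 9.74, 10.30 and 11.04 in the TWD mice, and it rose by 0.39 (SE 0.10, adjusted p = 0.0157). The highest STD values were 10.59 and 10.76, both from A+Tw/STD mice, within the upper part of the TWD range. Epha10, a second Eph receptor without kinase activity, rose by 0.19 (SE 0.07, adjusted p = 0.0359), and Ephb1 by 0.16 (SE 0.06, adjusted p = 0.0406). Epha3 fell by 0.36 (SE 0.12, adjusted p = 0.0309), Epha2 by 0.21 (SE 0.07, adjusted p = 0.0327), Epha4 by 0.33 (SE 0.12, adjusted p = 0.0386) and Epha5 by 0.34 (SE 0.13, adjusted p = 0.0489).

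Among the ligands, Efna1, a GPI-anchored ephrin, had a lowest, median and highest level of 6.63, 6.99 and 7.53 on STD and 6.90, 7.24 and 7.64 on TWD. It rose by 0.22 (SE 0.07, adjusted p = 0.0203). Efna5, of the same class, fell by 0.33 (SE 0.11, adjusted p = 0.0217), and Efnb2, a transmembrane ephrin, by 0.28 (SE 0.10, adjusted p = 0.0341). The most abundant ephrin, Efnb3, differed by 0.07 (95% interval -0.02 to 0.16). The netrins split, with Ntn4, a netrin of basement membranes, falling by 0.27 (SE 0.09, adjusted p = 0.0304) and Ntn5 rising by 0.21 (SE 0.08, adjusted p = 0.0395). Ntn1 differed by -0.04 (95% interval -0.19 to 0.12) and Ntn3 by 0.10 (95% interval -0.06 to 0.25). Ntn5, Robo1, Ephb1 and Epha5 had the 4 largest adjusted p among the 24. Ntn5 is inside the naming rule as the highest netrin per length. Robo1, Ephb1 and Epha5 fall outside the rule and were named after their values were seen. The same holds for members given here without a call that the rule does not name.

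**Figure D3:**
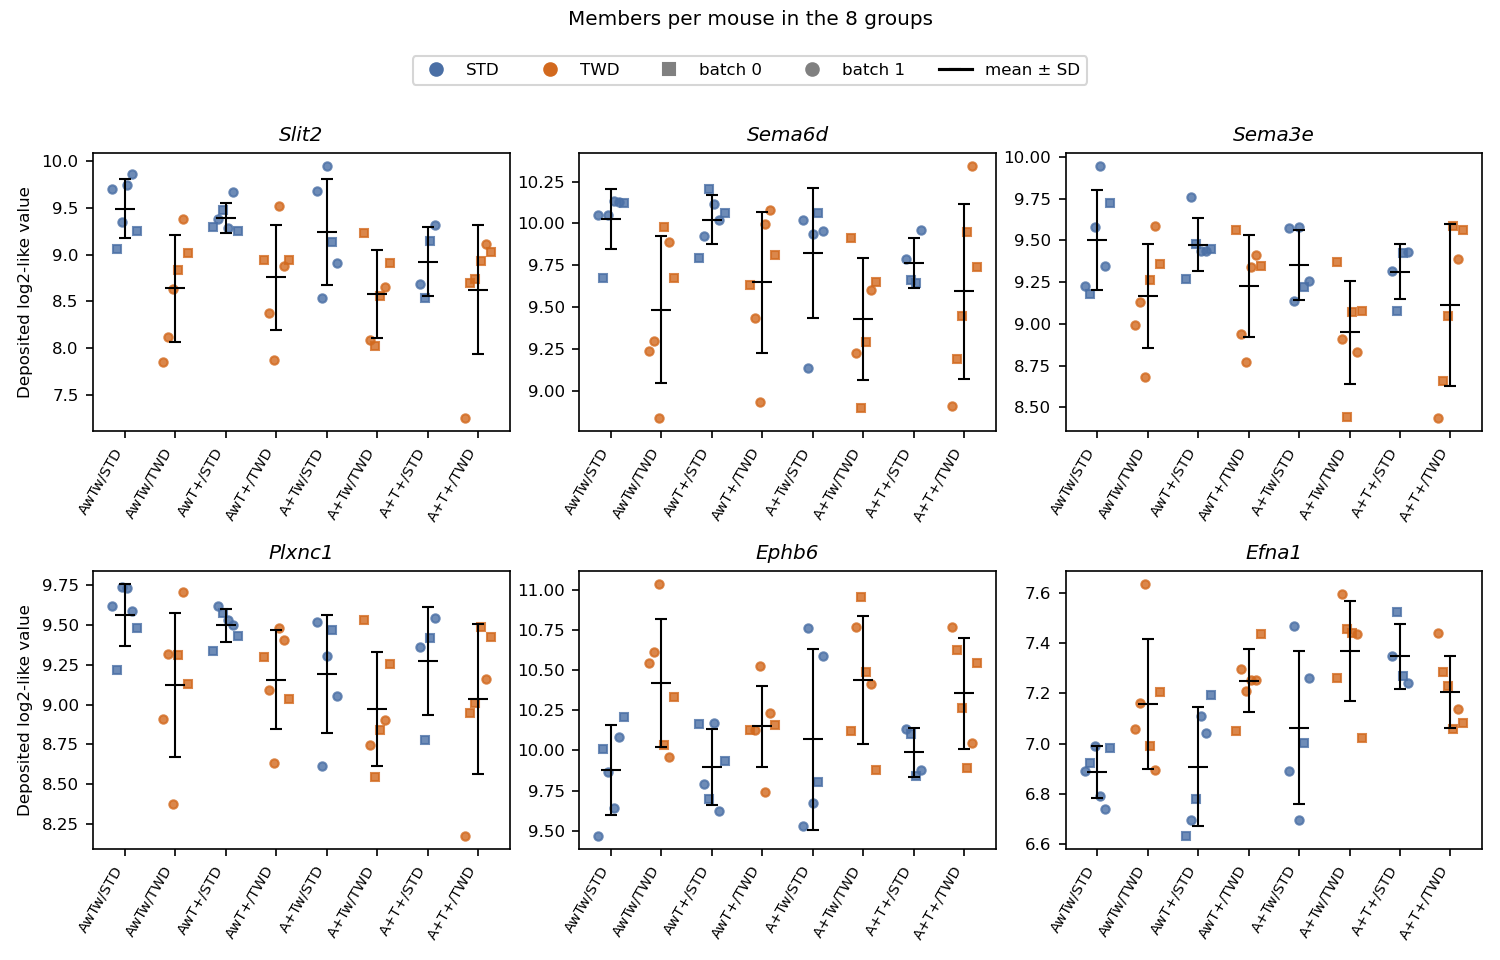
Each symbol is 1 mouse on the deposited log2-like scale, for 6 members in the 8 groups, with STD in blue, TWD in orange, squares for batch 0 and circles for batch 1, and bars for mean ± SD. Slit2 shows TWD mice below most STD mice in AwTw and AwT+ and a single A+T+/TWD mouse at 7.25, and Efna1 shows A+T+/STD mice at 7.24 to 7.53 above all AwTw/STD mice.

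Other genes of the pathway were taken from fixed lists. Of 28 coreceptors and other guidance receptors measured, 13 fell on TWD and 0 rose, beside 13.4% of all genes lower and 16.0% higher, with a median difference of -0.11 beside the close to 0 of all genes. The 5 with the smallest adjusted p were Unc5d, which fell by 0.55 (SE 0.14, adjusted p = 0.0157), Rgmb by 0.27 (SE 0.08, adjusted p = 0.0166), Lrrc4c by 0.35 (SE 0.10, adjusted p = 0.0172), Unc5c by 0.45 (SE 0.14, adjusted p = 0.0190) and Dcc by 0.51 (SE 0.16, adjusted p = 0.0217). Unc5c, Unc5d and Dcc are netrin receptors, Rgmb is a ligand of the Dcc relative neogenin, and Lrrc4c is a synaptic partner of netrin-G1. Of 46 intracellular effectors, 6 rose and 6 fell, a share near that of all genes in each direction, with a median of -0.01. Arhgef12, a guanine nucleotide exchange factor that binds B-type plexins, fell by 0.29 (SE 0.07, adjusted p = 0.0157), and Abl2, a kinase that acts on the cytoskeleton, by 0.29 (SE 0.08, adjusted p = 0.0165). Cfl1, the actin-severing cofilin, rose by 0.29 (SE 0.08, adjusted p = 0.0159), Mical2 by 0.26 (SE 0.08, adjusted p = 0.0172) and Cdk5 by 0.25 (SE 0.07, adjusted p = 0.0189).

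The promoters of the members with the smallest p in each direction are shown, since these genes moved with diet: Slit2 and Sema6d, which fell, and Ephb6, which rose. RefSeq promoters on GRCm38.p6 were matched by symbol for 52 of the 60 members, and the one nearest the annotated gene start was taken. Each line gives the 250 bases before the RefSeq start, on the strand of the gene, 5′ to 3′. That start lay inside the gene as GENCODE annotates it by 17 bases for Slit2 and 29 for Ephb6, and these last bases of their lines are within the annotated gene. Shown in capitals is the GC box (GGGCGG, or CCGCCC on the other strand).
Slit2, chr5:47982905-47983154, plus strand: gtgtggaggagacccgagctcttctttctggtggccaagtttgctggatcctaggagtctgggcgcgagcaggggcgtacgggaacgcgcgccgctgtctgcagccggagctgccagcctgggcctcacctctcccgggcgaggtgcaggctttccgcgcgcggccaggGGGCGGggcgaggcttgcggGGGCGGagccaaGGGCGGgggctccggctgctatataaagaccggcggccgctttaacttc
Sema6d, chr2:124089719-124089968, plus strand: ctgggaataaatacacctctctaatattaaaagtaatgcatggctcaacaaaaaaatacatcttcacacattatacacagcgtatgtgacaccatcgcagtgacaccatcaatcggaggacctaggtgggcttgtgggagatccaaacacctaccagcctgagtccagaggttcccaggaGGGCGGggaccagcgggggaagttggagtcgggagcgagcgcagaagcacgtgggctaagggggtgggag
Ephb6, chr6:41605261-41605510, plus strand: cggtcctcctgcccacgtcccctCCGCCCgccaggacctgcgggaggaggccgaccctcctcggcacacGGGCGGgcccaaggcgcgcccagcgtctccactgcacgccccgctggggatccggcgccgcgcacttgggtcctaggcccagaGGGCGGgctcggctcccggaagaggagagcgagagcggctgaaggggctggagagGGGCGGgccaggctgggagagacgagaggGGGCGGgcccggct

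The Ephb6 promoter was the richest of the 3 in GC (76.8%, with 27 CpG), followed by Slit2 (69.6%, 25 CpG) and Sema6d (52.4%, 9 CpG). All 3 held at least 1 GC box, which occurred in 73.1% of the 52 member promoters and in 32.7% of the 32851 promoters of the same length in the table. Among members, 14 of 17 promoters of genes that fell and 3 of 6 of genes that rose held it (no test). The CCAAT box (CCAAT) was in 3 of the 17 and 3 of the 6, beside 33.8% of all promoters, and TGACG in 4 of the 17 and 0 of the 6, beside 17.8%. Slit2 also held TATAAA, found in 12.4% of all promoters and in 2 of the 52, and Sema6d held CACGTG, found in 6.02% of all promoters and in 2 of the 52, each searched on both strands.

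The members that fell and those that rose differed in transcript length and base composition. The 18 lower members had a median longest transcript of 6386 bases and a median GC content of 48.7%, against 4122 bases and 57.6% in the 6 higher members and 4850 bases and 56.8% in the 36 not called. Over all genes the 2102 lower ones with known length had medians of 5025 bases and 45.8%, and the 2505 higher ones 1995 bases and 55.0%. Across the 60 members, Pearson's r between the diet difference and GC content was 0.68 (Spearman's coefficient 0.65), and with log2 length -0.50 (Spearman's -0.49). Across all 15695 genes with both values they were 0.59 (Spearman's 0.62) and -0.43 (Spearman's -0.47), where genes share libraries and are not independent replicates. After a trend over length and GC content was removed from each mouse, 10 of the 24 members passed, 8 lower and 2 higher, beside 14.8% of all genes (65% of these higher on TWD, against 54.4% before), and Slit2 was at -0.39 and Sema6d at -0.25, while Sema3e (0.05) and Ntn5 (-0.01) changed sign.

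**Figure D4:**
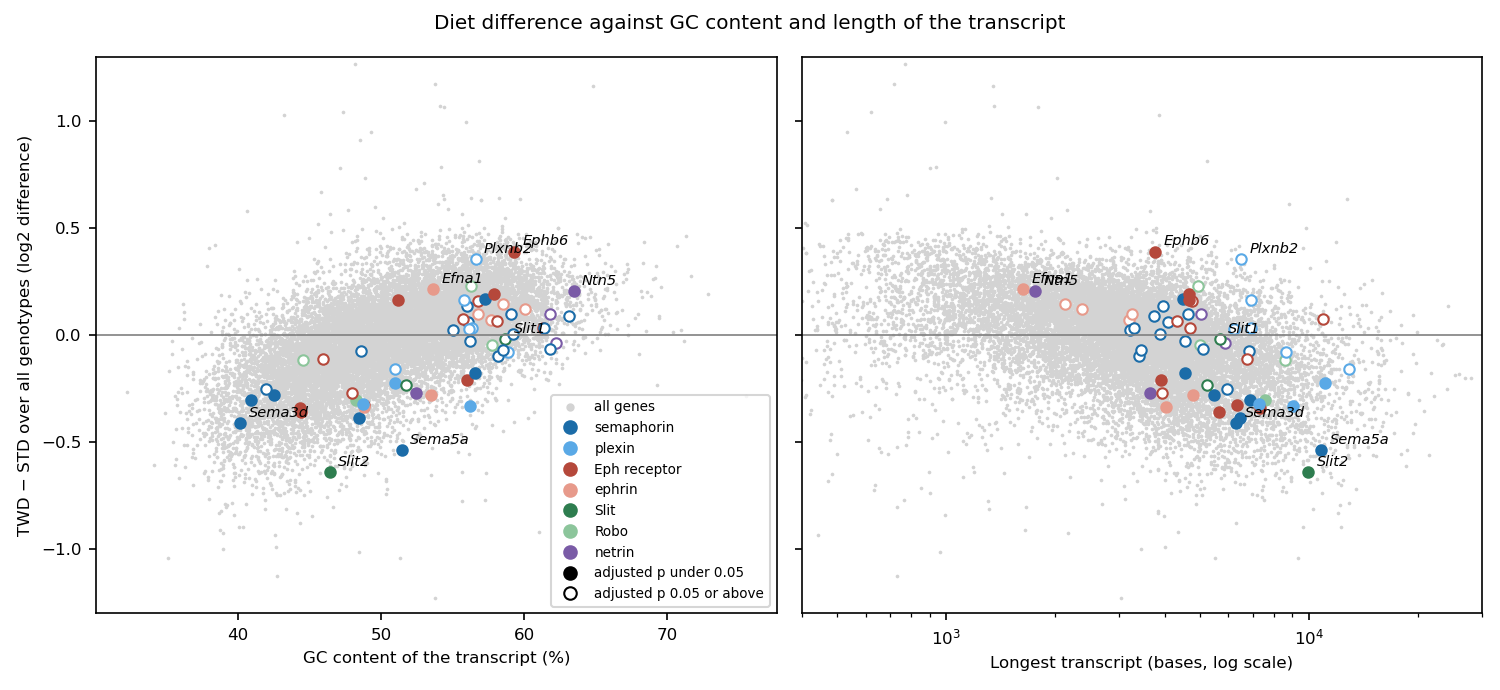
The log2 difference TWD minus STD over all genotypes is plotted against GC content (left) and the length of the longest transcript (right, log axis). GC content is the mean over the annotated transcripts of a gene. All genes are in grey and the 60 members in colour, filled where they passed. 3 genes in the left and 129 in the right panel lie outside the axes. The members that fell gather at low GC content and long transcripts, and those that rose at 51.2% GC or above and 4667 bases or below.

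The diet difference also moved with batch, with a few mice and with a score of the variation shared by all genes. Within batch 0 (8 STD and 12 TWD mice) 0 members and 0.0% of all genes passed, and within batch 1 (13 and 12 mice) 25 members and 40.9% of all genes. Slit2 was at -0.25 in batch 0 and -0.94 in batch 1, Sema6d at -0.24 and -0.49, Ephb6 at 0.29 and 0.51, and Sema5a at -0.05 and -1.01. Over the 24 called members the median absolute difference was 0.16 in batch 0 and 0.33 in batch 1. Whether the diet effect differs between the batches was not tested.

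The shared score (the first component of the residuals of all genes, applied to each mouse) had a mean of 0.11 ± 0.40 (SD) in STD and -0.07 ± 0.48 in TWD mice of batch 0, and of 0.66 ± 0.99 and -0.72 ± 1.23 in batch 1. With this score in the fit, 0 members and 0.0% of all genes passed, with Slit2 at -0.27, Sema6d at -0.15, Sema4g at -0.19, Plxna1 at -0.26 and Epha2 at -0.24, while Sema5a (0.02) and Epha5 (0.05) changed sign. Without the AwTw mice, 0 members and 0.0% of all genes passed as well, with Slit2 at -0.57 and Ephb6 at 0.34. The count fell to between 11 and 15 when any one of A+T+/TWD replicate 1, AwTw/TWD replicates 2 and 3, AwT+/TWD replicate 3, AwTw/STD replicate 4 or A+Tw/STD replicate 3 was left out (17.4% to 21.5% of all genes), and 9 of the 24 members passed in each of the 45 fits that left out 1 mouse.

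The next comparisons asked whether diet moved the members within each genotype, with all groups in 1 fit. In AwTw mice 2 of 60 passed (3.33%), beside 9.35% of all genes. At an unadjusted p under 0.05 were 21 members (35%), beside 40.2% of all genes. Slit2 fell by 0.85 (SE 0.28, adjusted p = 0.0498). Sema4d ran from 9.29 through a median of 9.62 to 9.79 on STD and from 9.68 through 9.86 to 10.18 on TWD, with 2 STD mice above the lowest TWD mouse, and rose by 0.36 (SE 0.12, adjusted p = 0.0498). Sema5a differed by -1.04 (SE 0.36, adjusted p = 0.052) and Ephb6 by 0.54 (SE 0.20, adjusted p = 0.056). Leaving out 1 of the 12 mice gave 0 calls, beside 0.0% of all genes, in 8 fits. These were the fits without any one of AwTw/TWD replicates 1, 2, 3 and 6 or AwTw/STD replicates 1, 3, 4 and 5. The calls were 12 without AwTw/STD replicate 2 (beside 28.9% of all genes) and 12 without AwTw/STD replicate 6 (32.6%). Without AwTw/TWD replicate 4 they were 9 (22.4%), and without AwTw/TWD replicate 5 they were 22 (38.2%).

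In each of the transgenic genotypes 0 members passed in limma, as did 0.0% of all genes in each. At an unadjusted p under 0.05 were 2 members in A+T+ mice (3.33%, beside 2.57% of all genes). There were 4 in A+Tw (6.67%, beside 4.43%) and 5 in AwT+ mice (8.33%, beside 7.44%). The difference in A+T+ mice was -0.32 for Slit2 and 0.38 for Ephb6, compared with -0.72 and 0.40 for the A+Tw genotype and -0.62 and 0.24 for AwT+. Efna1 differed by -0.13 in A+T+ mice, by 0.33 in both AwT+ and A+Tw, and by 0.27 in AwTw. The diet effect of AwTw mice against that of the other genotypes gave 0 members and 0.0% of all genes. At an unadjusted p under 0.05 this comparison had 5 members (8.33%), beside 7.07% of all genes. For Slit2 this difference of differences was -0.30 (95% interval -0.96 to 0.35) and for Sema4d 0.26 (95% interval -0.02 to 0.53). In A+T+ mice 2 members had values that did not overlap between the diets, beside 0.528% of all genes, Ntn4 (7.26 to 7.62 on STD and 6.41 to 7.14 on TWD, difference -0.57, SE 0.20, adjusted p = 0.998) and Efna2 (difference 0.25, adjusted p = 0.998).

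The study's other question was how β-amyloid and tau genotypes changed the hippocampus. Comparing all 21 A+ with all 24 Aw mice, 0 members passed in limma, beside 3.77% of all genes, and 12 had an unadjusted p under 0.05 (20% of members and 15.1% of all genes), 4 higher and 8 lower in A+. The smallest p was that of Efna1, at 0.20 (SE 0.06, adjusted p = 0.065). Its values ran from 6.70 through a median of 7.26 to 7.59 in A+ and from 6.63 through 7.04 to 7.64 in Aw mice, which overlap over nearly the whole range. The 5 largest differences were Sema3b at 0.47 (SE 0.28), Plxnb2 at 0.33 (SE 0.17), Sema3d at -0.32 (SE 0.13), Sema5a at -0.28 (SE 0.19) and Plxna1 at -0.26 (SE 0.12), with adjusted p from 0.22 to 0.48. In the same fit 12 of 14 microglia markers rose in A+ mice.

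Of the other pathway genes, Plxdc2, a transmembrane protein with a plexin-like domain, rose by 0.57 in A+ mice (SE 0.06, adjusted p = 3.98e-09), Fes, a tyrosine kinase downstream of plexins that is also expressed in myeloid cells, rose by 0.45 (SE 0.12, adjusted p = 0.0160) and Flrt1 fell by 0.31 (SE 0.09, adjusted p = 0.0333). Efna1 passed the threshold in the A+ comparison without any one of AwTw/TWD replicate 3, A+Tw/TWD replicate 6, A+Tw/STD replicate 3, AwT+/STD replicate 6 or AwT+/TWD replicate 6.

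Against AwTw on the same diet, 0 members passed for A+Tw/STD (beside 0.925% of all genes), A+Tw/TWD (beside 0.824%), A+T+/STD (beside 1.32%) and A+T+/TWD (beside 0.73%). At an unadjusted p under 0.05 were 3 members for A+Tw/STD (5%, beside 5.66% of all genes) and 1 for A+Tw/TWD (1.67%, beside 5.2%). There were 7 for A+T+/STD (11.7%, beside 14.3%) and 2 for A+T+/TWD (3.33%, beside 7.76%). On STD, Efna1 was at 6.74, 6.91 and 6.99 (lowest, median and highest) in AwTw, at 6.70, 6.89, 7.00, 7.26 and 7.47 in A+Tw and at 7.24, 7.27, 7.35 and 7.53 in A+T+ mice. The A+T+/STD mice lay above all AwTw/STD mice, and Efna1 was the 1 member with this separation, beside 4.31% of all genes. The difference was 0.47 (SE 0.13, adjusted p = 0.073), and on TWD it was 0.07 (SE 0.12, adjusted p = 0.94). The change of the A+ effect between diets for Efna1 was -0.20 (95% interval -0.46 to 0.06, adjusted p = 0.92). In that comparison of diets 0 members and 0.0% of all genes passed. At an unadjusted p under 0.05 were 2 members (3.33%, beside 2.59% of all genes), Efnb1 (-0.46, SE 0.17) and Ephb4 (-0.45, SE 0.19).

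Tau genotype gave 0 members in limma, beside 0.0189% of all genes. At an unadjusted p under 0.05 was 1 member (1.67%), beside 5.15% of all genes. AwT+ against AwTw gave 0 members and 0.0% of all genes on each diet. At an unadjusted p under 0.05 there were 0 members on STD, beside 2.39% of all genes. On TWD there was 1 (1.67%, beside 3.04%), Efna2 (-0.33, SE 0.11, adjusted p = 0.86). Slit2 differed by -0.08 between T+ and Tw mice (95% interval -0.37 to 0.21). The SE in this comparison ran from 0.04 to 0.28 over the members, with a median of 0.09.

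Sema3b, a secreted semaphorin, had the largest spread of the 60 and the smallest p between T+ and Tw mice. Its level had a lowest, median and highest value of 5.81, 7.00 and 8.13 in AwTw/STD and of 5.76, 6.92 and 8.92 in AwTw/TWD, and the 4 A+T+/STD mice lay between 7.94 and 8.86. It differed by 0.68 between T+ and Tw (SE 0.28, adjusted p = 0.93) and by 1.55 between A+T+/STD and AwTw/STD (SE 0.59, adjusted p = 0.23). The summed level of the 14 choroid plexus markers was 10.79 to 16.73 in AwTw/STD and 16.05 to 17.29 in A+T+/STD mice. With the choroid plexus score in the fit, the residual SD of Sema3b went from 0.96 to 0.37, and the differences became 0.05 (SE 0.12) and 0.26 (SE 0.25). Sema3f, of the same class, went from a residual SD of 0.38 to 0.28.

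The spread of other members between mice was set against the marker lists. For each member, the list was taken that lowered its residual SD most, and 15 of 60 members were lowered by over 30%. The shared score of all genes alone also lowered 15 members by over 30%, so the drops are not shown to be particular to a cell type. The members to name were chosen after their values were seen. The astrocyte list lowered Slit3 from 0.38 to 0.20, Robo1 from 0.40 to 0.21, Epha4 from 0.43 to 0.24, Sema6d from 0.36 to 0.23 and Efnb2 from 0.35 to 0.22, each higher in mice with higher astrocyte markers. The CA1 pyramidal cell list lowered Sema7a from 0.20 to 0.13, Efna3 from 0.30 to 0.20 and Sema6b from 0.24 to 0.17. The excitatory neuron list lowered Slit1 from 0.24 to 0.14, and the pericyte and smooth muscle list lowered Ephb4, a receptor of veins, from 0.31 to 0.18. The endothelial list lowered Sema3g, a semaphorin of arteries, from 0.32 to 0.23, a drop of 28.6%. The microglia list lowered Efnb3 by more, 42.0%, from 0.14 to 0.08. It was the list taken for 14 of the 60 members, beside 19 for the astrocyte list. For Slit2 the largest drop was from 0.50 to 0.45, with the microglia list.

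**Figure D5:**
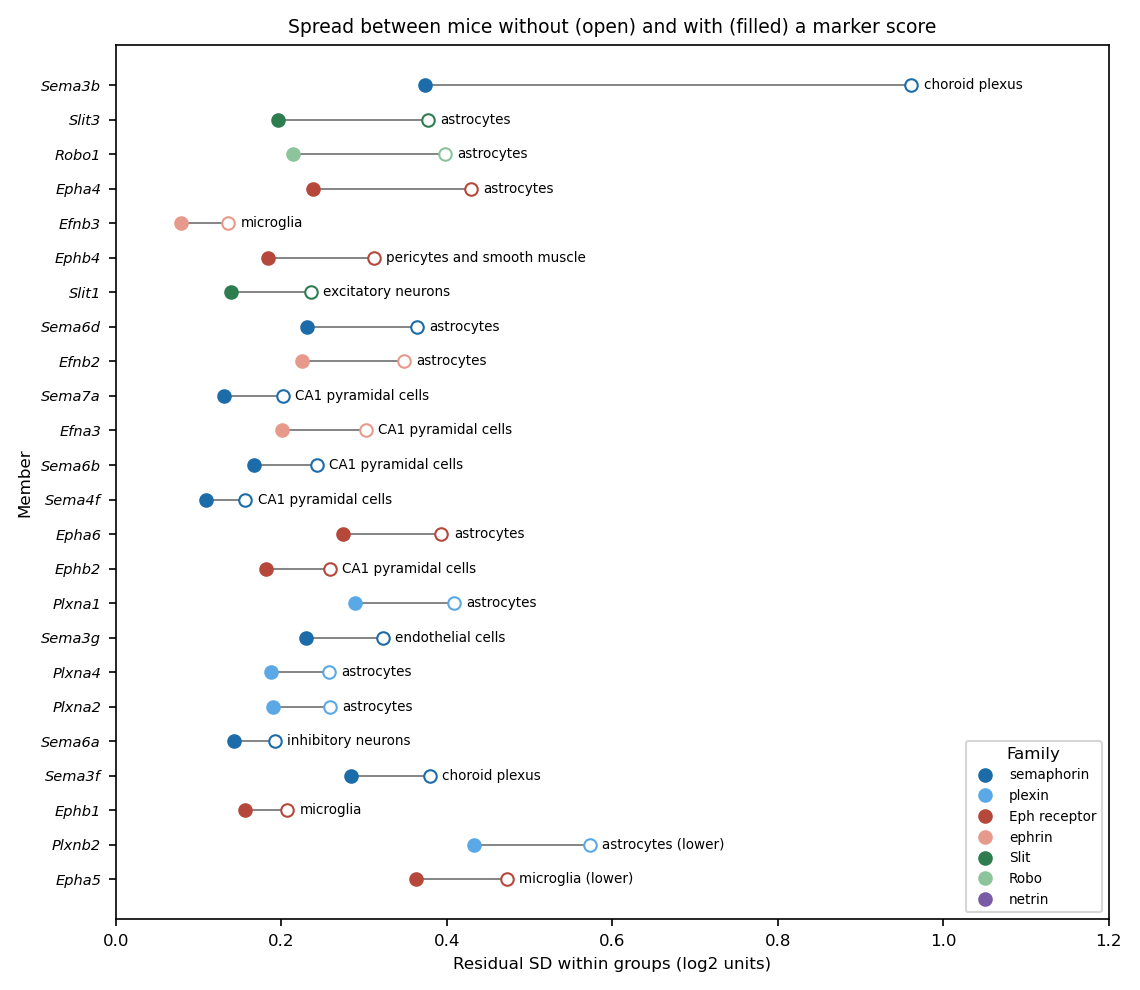
For the 24 members with the largest drop, the open point is the residual SD within groups and the filled point the residual SD with the score of the named marker list in the fit, in log2 units, with (lower) where the member was lower in mice with a higher score. Sema3b drops from 0.96 to 0.37 with the choroid plexus list, and Slit3, Robo1 and Epha4 drop by 44.6% to 48.1% with the astrocyte list.

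Calls in the marker lists are read beside the 13.4% of all genes lower and 16.0% higher on TWD. On TWD 4 of 11 astrocyte markers were lower and 2 higher (summed level 15.76 to 16.25 on STD and 15.60 to 16.33 on TWD), 9 of 14 microglia markers were higher and 1 lower (12.95 to 14.82 and 13.15 to 14.66), and 2 of 11 endothelial markers were higher and 1 lower (11.26 to 11.95 and 11.13 to 11.91). Of 11 oligodendrocyte markers 4 were higher and 1 lower (16.15 to 16.70 and 16.05 to 16.98), and of 9 excitatory neuron markers 3 were higher and 1 lower (16.62 to 17.38 and 16.53 to 17.27). Of 14 choroid plexus markers 0 passed (10.30 to 17.29 and 10.00 to 18.12). With the choroid plexus score in the fit 26 members passed, 20 of them lower, beside 32.4% of all genes (29.4% without the score). Each of these markers had a mean level of 6.87 or above. The part of cell composition in the fall of Robo1, Epha4, Sema6d and Efnb2 was not tested.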

How the data were processed

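Hippocampal polyA RNA of 45 mice was sequenced as single reads. Per the labels and the study's methods, the authors used FastQC 0.11.8, Trimmomatic 0.38, Bowtie2 2.2.3 to remove rRNA and mitochondrial reads, kallisto 0.44.0 on mouse (mm10) transcripts, a filter on a mean count over 10, the variance-stabilizing transformation of DESeq2 1.22.2 and removeBatchEffect of limma 3.38.3. The deposited values are therefore log2-like. In them both batches have the same mean for every gene, so groups were not held in place, and batch was kept in each fit. Depth per mouse is unknown.

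Groups came from the labels. Symbols, lengths, GC content and positions came from GENCODE M21 (GRCm38), with a length for 98.729% of genes. All 15897 genes were fitted with limma 3.58.1 (R 4.3.3, empirical Bayes with a mean trend, two-sided, Benjamini-Hochberg over all genes), in 1 fit of the 8 groups with batch for 14 comparisons and in another with genotype, diet and batch terms for diet over all genotypes. The scripts were tested on simulated data. Other values were computed in Python 3.11.15. The members, marker lists and pathway lists were chosen with earlier results of these data known, and no test over a list was run.

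Named were the 20 members with the smallest adjusted p in a comparison, the highest and lowest per length in each family, the 5 with the largest A+ difference, the 5 pathway genes with the smallest adjusted p, and members with a single mouse far from its group. Levels in each group were given for at most 8 members per comparison. A list score is the mean standardized value of its genes, a summed level is log2 of the sum of the markers on the linear scale, and a residual SD comes from the fit of group and batch. The alternatives were no batch term, each batch alone, the shared score or the choroid plexus score as a covariate, quantile normalization, removal of the length and GC trend, genes above the 25th percentile of mean value, only the groups compared, and each mouse left out. Added after seeing the data were the fit without AwTw mice, the mean of the 4 genotype differences, and the letters of the mouse label or the meninges score as a covariate.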

Additional observations from a re-analysis of the deposited data

Results flagged for a closer look

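In 4 of the 72 sets of 1 member in 1 group described mouse by mouse, a single mouse lay far from the others of its group by Dixon's criterion, where chance gives about 1 in 20. Slit2 was at 7.25 in A+T+/TWD replicate 1, with the next mouse at 8.70. Sema6d was at 9.67 in AwTw/STD replicate 2, with the next at 10.05, and at 9.13 in A+Tw/STD replicate 2, with the next at 9.93. Sema4g was at 8.62 in AwTw/TWD replicate 1, with the next at 8.40. Over all 60 members and 8 groups, 26 of 480 sets (5.42%) held such a mouse, close to the share that chance gives. A+Tw/TWD replicate 3 was the far mouse for 4 members, Epha4, Ephb2, Sema6a and Sema7a, on the low side in each.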

How the results depend on the processing

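For diet over all genotypes (24 members, beside 29.4% of all genes), the count was 0 in batch 0 alone, with the shared score and without AwTw mice. In each of these fits 0.0% of all genes passed. The count was 10 after removal of the length and GC trend (14.8% of all genes), and 11 to 29 when 1 mouse was left out (17.4% to 37.2%). The 19 to 26 calls of the other 8 alternatives differed from 24 by less than 1.5 times, beside 24.4% to 40.9% of the genes tested. The direction turned for Sema5a (0.0239) and Epha5 (0.0501) with the shared score and for Sema3e (0.0491) and Ntn5 (-0.0086) after removal of the length and GC trend, and in no fit that left out a mouse. In AwTw mice (2 members, beside 9.35% of all genes) the count was 0 in batch 0 alone, with the shared score, with quantile normalization and without the length and GC trend. In each of these fits 0.0% of all genes passed. With only the groups compared the count was 0, beside 0.00629% of all genes. The count was 5 without a batch term (15.7% of all genes) and 6 with the choroid plexus score (15.4%). Above the 25th percentile it was 7 (23.9% of the genes kept). Batch 1 alone gave 14 (25% of all genes), and leaving out 1 mouse gave 0 to 22 (0.0% to 38.2%). The A+ comparison (0 members) gave 1, Epha10 (lower in A+), with the shared score, beside 6.47% of all genes. It gave Epha10 alone again after removal of the length and GC trend, beside 5.76%, and 0 to 1 when 1 mouse was left out. A+T+ against AwTw on STD gave 1, Plxna4, after removal of that trend, beside 1.85% of all genes. A+Tw against AwTw on STD gave 0 to 1 (Sema4a, without AwTw/STD replicate 4). The causes were not tested. No paired analysis was possible because the labels number no replicates across groups. Without read counts, the depth behind low members such as Epha2 is unknown.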
